A study of Mus musculus with 14 samples.

Results

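The miRs of the uninjured heart were described in the left ventricle (LV) of 4 sham-operated mice, which went through surgery without constriction of the aorta. Every feature of the array with a mouse miR name was taken, which gave 1037 mouse miRs of the 2576 features of the array. The mice were male C57Bl/6 animals of 3 to 4 months, and each LV was measured on 1 single-channel array. They were 4 of the 14 mice of the series, in which 5 mice with heart failure (HF) and 5 mice with HF and estradiol were also measured and were not compared here. RNA came from whole LV tissue, so that cardiomyocytes, fibroblasts, endothelium, smooth muscle and blood cells all contributed, and more cells of a type cannot be told apart from more miR per cell.

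A miR is cut from a hairpin precursor whose stem gives a pair of short RNAs, the 5p arm and the 3p arm. Usually 1 arm is loaded into an Argonaute protein and guides it to messenger RNAs through its seed, the bases near the 5′ end, while the other arm is mostly degraded. In the older naming used on this array the arm thought to be the minor product carries a star, and precursors for which no minor arm was settled carry -5p and -3p. The heart is known for miR-1 and miR-133 of muscle, for miR-208a, miR-208b and miR-499, which lie in introns of myosin heavy chain genes, and for abundant let-7, miR-30 and miR-29 families.

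Signals are given as scaled log2 values, that is, the average of 3 background-subtracted spots on the log2 scale plus 1 constant per array. Log2 of the spot average plus 1 constant departed from the deposited values by at most 0.13 to 0.34 log2 units, depending on the array. A difference of 1 log2 unit is a doubling of signal. Probes were not calibrated against each other, so a rank or a difference between arms is one of array signal and not of RNA copies. A miR was called above threshold on an array when it passed the detection limit that had been set from the negative controls of that array (5.42, 5.68, 5.72 and 5.73 on shams 1 to 4). It was at the scale limit when at least 2 of its 3 spots read 65000 or more, and it was measured when it was above threshold on all 4 arrays and at the limit on none.

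The let-7, miR-30, miR-29, miR-15a, miR-16 and miR-133b sequences below are shown because their seeds are shared by the brightest miRs. These seeds return in the ranking that follows. miR-208a-3p, miR-208b, miR-499 and miR-126-3p are shown as markers of muscle and vessel. Capitals mark the seed (bases 2 to 8). Sequences are those deposited with the array values and match mature miRs of RefSeq (GRCm38.p6). The first 5 belong to the let-7 family, the next 3 to the miR-30 family, then follow the miR-29 family, miR-15a with miR-16, and the muscle and vessel miRs.
let-7a: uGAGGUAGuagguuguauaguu
let-7b: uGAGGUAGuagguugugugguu
let-7c: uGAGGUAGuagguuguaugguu
let-7f: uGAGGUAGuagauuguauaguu
let-7i: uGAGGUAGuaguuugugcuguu
miR-30a: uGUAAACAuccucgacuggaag
miR-30c: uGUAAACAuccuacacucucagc
miR-30e: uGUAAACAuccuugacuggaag
miR-29a: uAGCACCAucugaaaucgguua
miR-29b: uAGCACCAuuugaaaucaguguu
miR-29c: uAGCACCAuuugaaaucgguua
miR-15a: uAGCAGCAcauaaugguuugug
miR-16: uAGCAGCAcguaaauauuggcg
miR-133b: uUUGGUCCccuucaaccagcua
miR-208a-3p: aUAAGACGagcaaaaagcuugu
miR-208b: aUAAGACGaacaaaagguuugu
miR-499: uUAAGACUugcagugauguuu
miR-126-3p: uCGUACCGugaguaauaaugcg

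Of the 1037 mouse miRs, 497 (47.9%) were above threshold in all 4 mice, 130 in 1 to 3 mice and 410 (39.5%) in none. The single arrays held 560, 560, 535 and 572 miRs above threshold in shams 1 to 4. Of the 497, 25 were at the scale limit on every array, let-7g was at the limit on 2 arrays, and 471 were measured. Dim signals were the most common among the measured miRs: 232 had a mean under 8, 103 lay between 8 and 10, 71 between 10 and 12, 37 between 12 and 14, and 28 at 14 or above. Of the 330 starred names, 130 were measured and 162 were below threshold in every mouse. The miRs next to the threshold were miR-412-3p, miR-340-3p and miR-330 just above it, by 0.14 to 0.16 log2 units on average, and miR-448-3p, miR-466a-5p and miR-544-3p just below it, by 0.16 to 0.20.

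**Figure D1:**
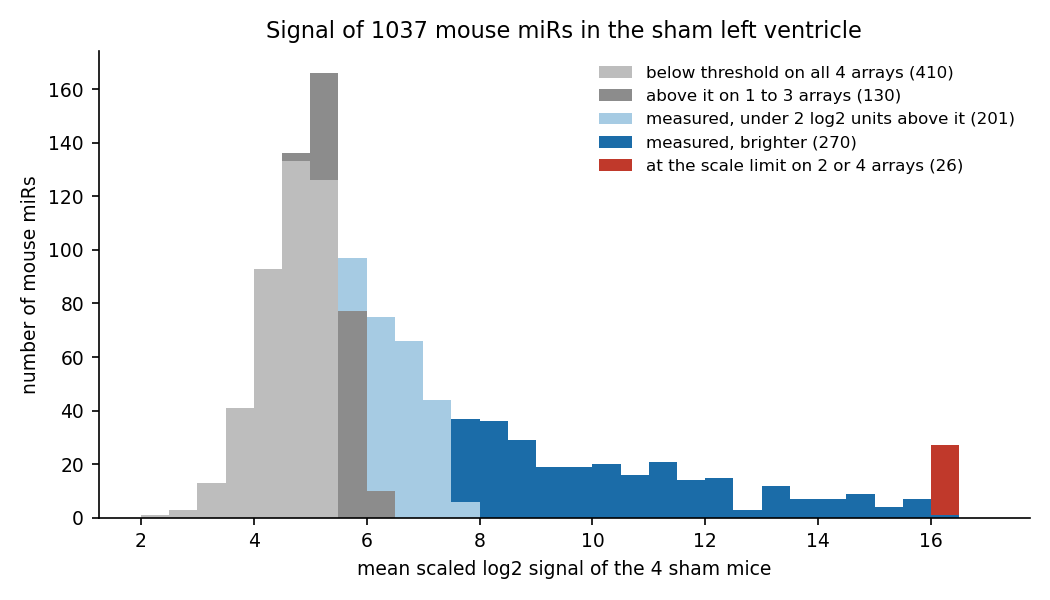
Histogram of the mean scaled log2 signal (x axis) over the 4 sham mice for the 1037 mouse miRs (y axis, number of miRs per bin), stacked by class. The 410 miRs below threshold in every mouse form the left peak, and the 26 miRs at the scale limit on 2 or 4 arrays stand at the right edge.

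The 25 miRs at the limit in every mouse were let-7a, let-7c, let-7d, let-7f, miR-1, miR-16, miR-22, miR-23a, miR-23b, miR-24, miR-26a, miR-29a, miR-29b, miR-30b, miR-30d, miR-125b-5p, miR-126-3p, miR-133a, miR-133b, miR-143, miR-145, miR-378, miR-451, miR-690 and miR-709. Their values lay between 16.10 and 16.46, which the scanner sets, so they have no order among themselves and no spread of their own. This group joined miRs of several cell types. miR-1 and the miR-133 pair are muscle miRs that act in cardiomyocyte differentiation and conduction, miR-143 and miR-145 are made in smooth muscle, miR-126-3p in endothelium and miR-451 in red blood cells. miR-378 lies in the metabolic regulator gene Ppargc1b, and miR-29a and miR-29b repress collagen messages. The nearest miR outside the rule was let-7g, whose values of 16.06, 16.42, 16.11 and 16.25 in shams 1 to 4 came close to the limit in every mouse.

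Below the limit, miR-30e was the brightest, with 15.88, 16.20, 16.27 and 16.19 in shams 1 to 4 (16.13 ± 0.17, SD, n = 4). It led the unsaturated miRs in shams 1, 2 and 3. In sham 4 miR-2145 led, with 16.32 against 15.63 to 15.78 in the other mice. miR-30a followed at 15.88 ± 0.17 and miR-30c at 15.69 ± 0.09. The probes of all 5 members of the family, counting miR-30b and miR-30d at the limit, thus stood among the brightest of the LV. Probes of such similar sequences may report the same RNA, which was not tested. let-7i had 15.52, 15.88, 15.81 and 16.03, and let-7b had 15.32, 15.50, 15.32 and 15.52, in both cases with sham 4 highest. miR-208a-3p, encoded in an intron of Myh6, the adult myosin heavy chain gene of mouse ventricle, had 15.70, 15.82, 15.65 and 15.89 (15.77 ± 0.10). miR-27a, from the cluster of miR-23a and miR-24, lay 0.03 ± 0.01 log2 units under miR-208a-3p, and in the same order in all 4 mice.

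The remaining miRs of the 20 brightest were miR-696, miR-99a, miR-125a-5p, miR-29c, miR-2861, miR-15a, miR-149*, the probe shared by miR-199a-3p and miR-199b, miR-133a*, miR-130a, miR-720 and the probe shared by miR-486 and miR-3107, with means from 15.58 down to 14.64. miR-720 has since been withdrawn from miRBase as a fragment of a transfer RNA. Of the 19 pairs of neighbours in this order, 5 kept their order in all 4 mice, namely miR-30e over miR-30a, miR-208a-3p over miR-27a, miR-696 over let-7b, miR-125a-5p over miR-29c, and the miR-199a-3p probe over miR-133a*. In the other 14 the order turned in at least 1 mouse, and differences between neighbours were not tested. Each mouse taken alone still placed 18 or 19 of the 20 among its own 20 brightest. miR-29c varied least among them (15.05, 15.10, 15.07 and 15.17), and miR-2861 most, with 15.28 and 15.56 in shams 1 and 2 against 14.60 and 14.52 in shams 3 and 4.

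**Figure D2:**
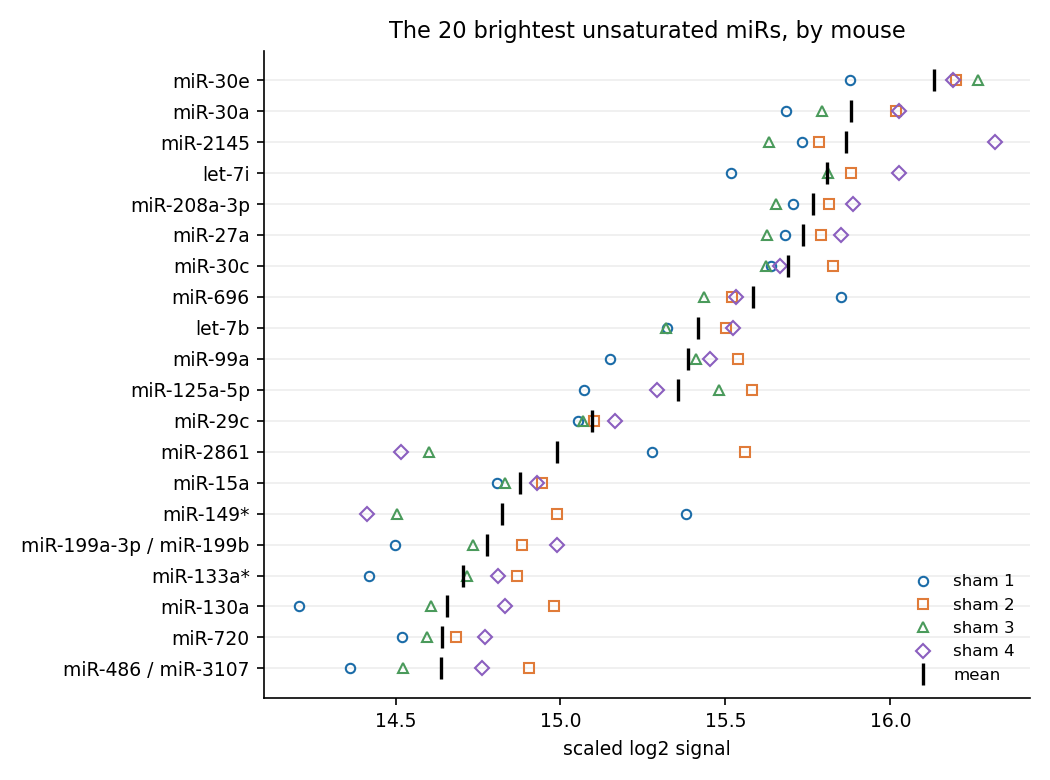
Scaled log2 signal (x axis) of the 20 brightest unsaturated miRs (y axis), with a symbol for each of the 4 sham mice and a bar for the mean. The means run from 16.13 for miR-30e to 14.64 for the miR-486 probe, and the mice overlap between most neighbours.

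Shared seeds grouped the top of the list. Among the 25 miRs at the limit and the 25 brightest others, the seed GAGGUAG was carried by let-7a, let-7b, let-7c, let-7d, let-7f, let-7g and let-7i, and GUAAACA by miR-30a to miR-30e. AGCACCA was shared by miR-29a, miR-29b and miR-29c, AGCAGCA by miR-15a, miR-16 and miR-195, CCCUGAG by miR-125a-5p and miR-125b-5p, UUGGUCC by miR-133a and miR-133b, and UCACAUU by miR-23a and miR-23b. Several of these sequences differ in few bases, as the printed let-7, miR-30 and miR-29 members show. Their probes may report the same RNA, so the members are not separate observations. Probes of members with the same seed were not equally bright. let-7e had 13.05, 13.29, 13.09 and 13.27, and miR-98, which shares the let-7 seed, had 10.38, 10.40, 10.07 and 10.43. In the miR-15 and miR-16 family the means ran from the limit for miR-16 to 12.08 ± 0.05 for miR-322. In the miR-181 family miR-181a (14.11 ± 0.24) stood above miR-181b (11.71 ± 0.23), miR-181d (10.90 ± 0.21) and miR-181c (10.31 ± 0.17). The miR-17 to miR-92 group of proliferation-linked clusters was grouped by cluster and not by seed. In it 11 of 14 miRs were measured, led by miR-19b at 13.78 ± 0.14, while miR-363-5p and miR-363-3p stayed below threshold in every mouse.

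Sequence composition varied little with the level over the 467 measured miRs with a deposited sequence. Pearson's r of GC content with mean signal was 0.07 (Spearman's rho 0.06), and that of length was -0.0087 (rho 0.03), across miRs that share the same 4 arrays. The first base differed between bright and dim miRs as a description: it was U in 16 of 25 miRs at the limit (64.0%). Among measured miRs it was U in 31 of 65 with a mean of 12 or more (47.7%) and in 74 of 231 with a mean under 8 (32.0%). Many of the 25 share a seed with another member of their family, so they are not 25 separate observations.

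The label of the tissue was checked against marker miRs. Of 8 muscle probes, 3 were at the limit and 4 were measured. Next to miR-208a-3p stood miR-499 with 12.94, 13.25, 13.04 and 13.10, from an intron of Myh7b. miR-208b, from the fetal and slow myosin gene Myh7, was far dimmer with 8.95, 9.10, 7.67 and 8.75, and sham 3 lay lowest. miR-206 of skeletal muscle passed the threshold in sham 1 only (6.19, 4.98, 5.53 and 5.30). The 3 myosin miRs share the bases UAAGAC at the start of the sequences printed above, and miR-208a-3p (chr14:54949072-54949093, minus strand, GRCm38.p6) and miR-208b (chr14:54975710-54975731, minus strand) lie near each other in the genome.

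All markers of the vessel wall, fibroblasts and blood were above threshold. Fibroblast and mesenchymal miRs had means of 14.78 for the miR-199a-3p probe, 14.39 for miR-199a-5p and 11.73 for miR-214, and sham 1 was the lowest mouse for each. Of the miRs listed for red blood cells, miR-451 was at the limit and the miR-486 probe had 14.64 ± 0.24. miR-144, cut from the same transcript as miR-451, had 9.71 ± 0.12. White blood cell miRs ranged from miR-150 of lymphocytes at 13.87 ± 0.23 through miR-223 of myeloid cells at 11.31 ± 0.14 to miR-142-3p at 6.44 ± 0.09. miR-155, induced in activated immune cells, had 9.99, 11.08, 10.24 and 10.45, with sham 2 highest. The share of the listed blood miRs that came from blood left in the tissue, or from other cells of the LV such as muscle, was not tested.

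Markers of tissues other than heart were at or near background, with exceptions. miR-122 of liver was below threshold in every mouse (4.56, 5.22, 5.06 and 5.60), as was miR-375 of pancreatic islets. The other miR of the islet and pituitary list, miR-7a, was measured, with 7.14, 7.60, 7.04 and 7.23. Of 6 epithelial miRs only miR-141 passed in all 4 mice, at 6.06 ± 0.32, and the others had means from 5.38 for miR-200b to 5.94 for miR-200a. The neuronal list was split: miR-128 had 11.16 ± 0.24 and miR-219-5p 7.68 ± 0.11, whereas miR-124 passed in 1 mouse and miR-9 in 3. Of the 16 probes of the embryonic stem cell list, 8 were above threshold in every mouse, which is close to the 47.9% of all mouse miRs. All 8 lay within 2 log2 units of the threshold, with miR-302c brightest at 6.73.

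**Figure D3:**
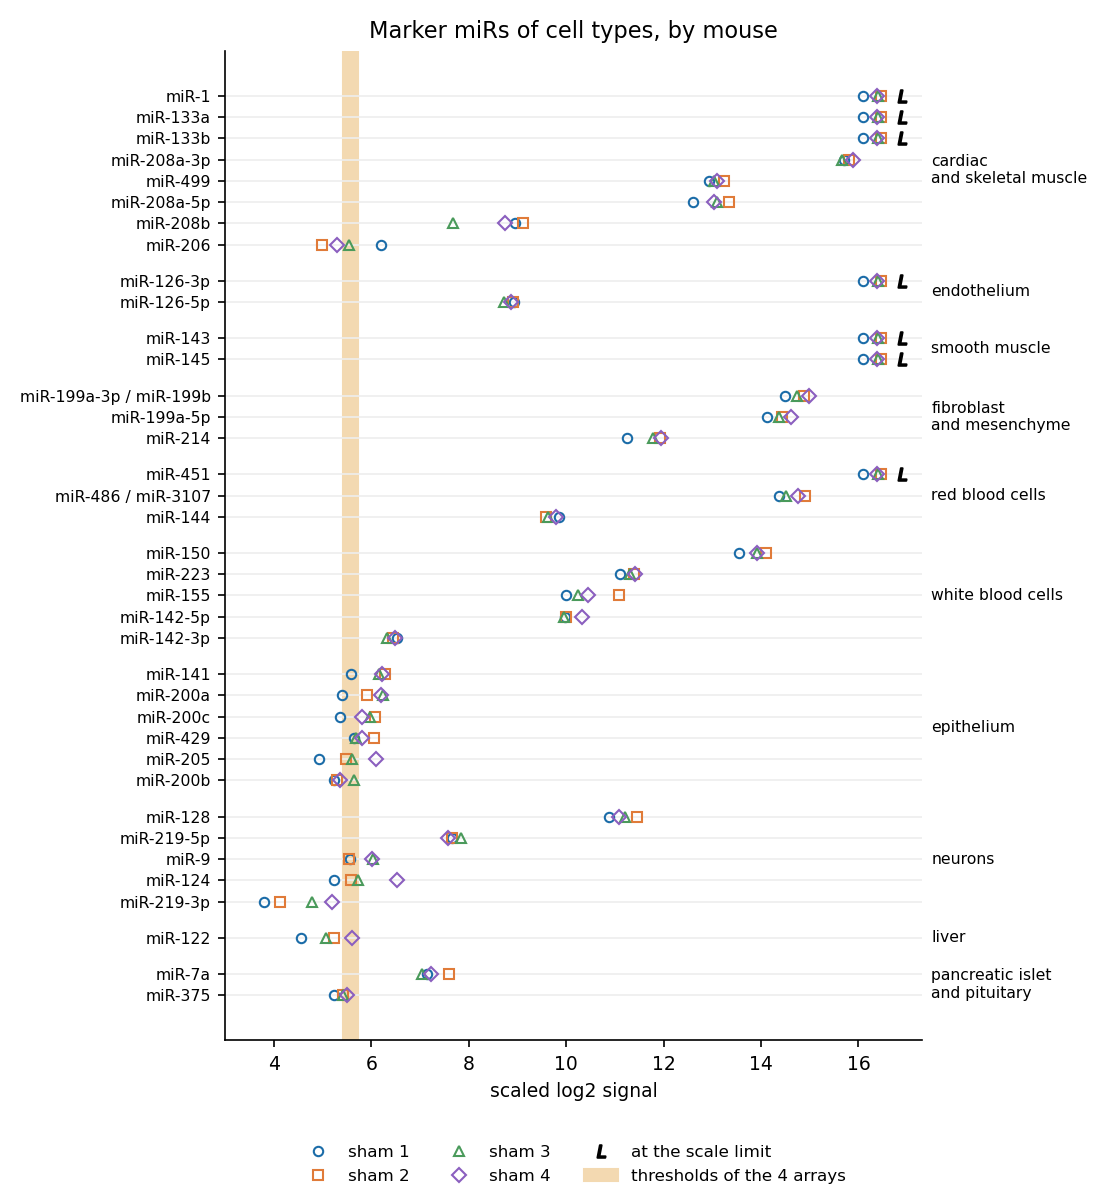
Scaled log2 signal (x axis) of marker miRs (y axis) in each of the 4 sham mice, grouped by cell type, with the band of the 4 detection thresholds (5.42 to 5.73) shaded and L marking miRs at the scale limit. Muscle, vessel, fibroblast and blood miRs lie to the right of the band except miR-206, and epithelial and liver markers lie in or close to the band.

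The spread between mice was set beside that between spots. Over the 471 measured miRs the median SD between the 4 mice was 0.23 log2 units, against 0.17 between the 3 spots of a miR within an array. For the 270 miRs at least 2 log2 units above threshold it was 0.23 against 0.12, and 151 of them had an SD under 0.25 while 44 exceeded 0.5. For the 201 dimmer miRs it was 0.24 against 0.25. The SD between mice is that of averages of 3 spots and the SD between spots that of single spots, so they are unlike measures. Set against the SD of an average of 3 spots, the SD between mice was a median of 3.58 times as large for the 270 brighter miRs. The least variable were miR-1199* (8.97, 8.90, 8.94 and 8.94), miR-19a, miR-29c, miR-340-5p and miR-449c, with SDs from 0.03 to 0.05. The most variable was miR-153, a brain miR, with 10.04, 8.14, 6.58 and 8.18 (SD 1.42), followed by miR-483 from the Igf2 gene with 12.32, 10.07, 11.67 and 10.67 (SD 1.01). The other 8 of the 10 highest SDs, 0.85 to 0.98, belonged to miR-3472, miR-877, miR-467a*, miR-669a-3-3p, miR-467g, miR-669e*, miR-669p* and miR-467b*, and sham 1 was the highest mouse for all 10. Without sham 1 the SD was 0.91 for miR-153, 0.81 for miR-483 and 0.40 to 0.59 for these 8.

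Sham 1 stood apart from the other 3 mice in general. It was the lowest mouse for 142 of the 270 brighter miRs, against 41 to 44 for each other mouse, while its count of highest values (72) lay within the 27 to 87 of the others. Without it the median SD of the 270 fell from 0.23 to 0.15, and that of all 471 measured miRs also fell to 0.15. Pearson's r between arrays over 471 miRs was 0.970 to 0.982 for pairs with sham 1 and 0.989 to 0.993 for the others. Its scaling constant was 0.10 log2 units against 0.39 to 0.46, and its median over all features was 5.12 against 5.39 to 5.53. Their part in the position of sham 1 was not tested.

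Of the 25 miRs with a sequence that exceeded the mean of the other mice by more than 1 log2 unit in sham 1, 16 held a repeat, which was noticed after the values were seen. miR-153 and miR-3472, which exceeded it most (by 2.41 and 1.85), did not hold it. The first 3 sequences below are shown because they carry long runs of alternating A and C, in capitals. They were more than 1 log2 unit higher in sham 1. The last 3 are shown because they carry shorter runs and differed by less. The first 3 are of the miR-466 and miR-467 families and the last 3 are not, so run length and family cannot be told apart.
miR-467f: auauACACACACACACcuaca
miR-466i-3p: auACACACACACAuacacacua
miR-467g: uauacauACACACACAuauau
miR-574-3p: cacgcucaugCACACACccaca
miR-362-3p: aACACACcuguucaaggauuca
miR-329: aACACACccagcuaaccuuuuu

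Among the 270 brighter miRs, 19 held ACACAC in the mature sequence, most of them of the miR-466, miR-467 and miR-669 families. Many members of these families lie in an intron of Sfmbt2. The printed miR-467f, miR-466i-3p and miR-467g lie apart from it, on chromosomes 11, 13 and 5. In sham 1 these 19 exceeded the mean of the other mice by a median of 1.47 log2 units (range -0.26 to 1.72), and sham 1 was the highest mouse for 17. For the 248 other miRs with a sequence the median was -0.22, and sham 1 was highest for 52 and lowest for 140. Among these 248, the members of the miR-466 and miR-669 families, which lack ACACAC, also exceeded the mean of the other mice in sham 1. The excess ran from 0.64 for miR-669f-5p to 1.17 for miR-466p-5p. miR-467f, whose run is 12 bases, had 12.74, 11.03, 11.74 and 11.16. miR-466i-3p with 11 bases had 12.23, 10.55, 11.19 and 10.52, and miR-467g with 9 bases had 9.10, 7.36, 8.20 and 7.15. In all of these sham 3 came second. miR-574-3p with 7 bases had 11.52, 11.17, 11.36 and 11.37, and miR-362-3p with 6 bases had 9.20, 9.54, 9.29 and 9.56. The median SD of the 19 was 0.81 with sham 1 and 0.42 without it. Probes of such similar sequences may report the same RNA, so the 19 are not 19 separate observations, and the source of the signal was not tested.

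**Figure D4:**
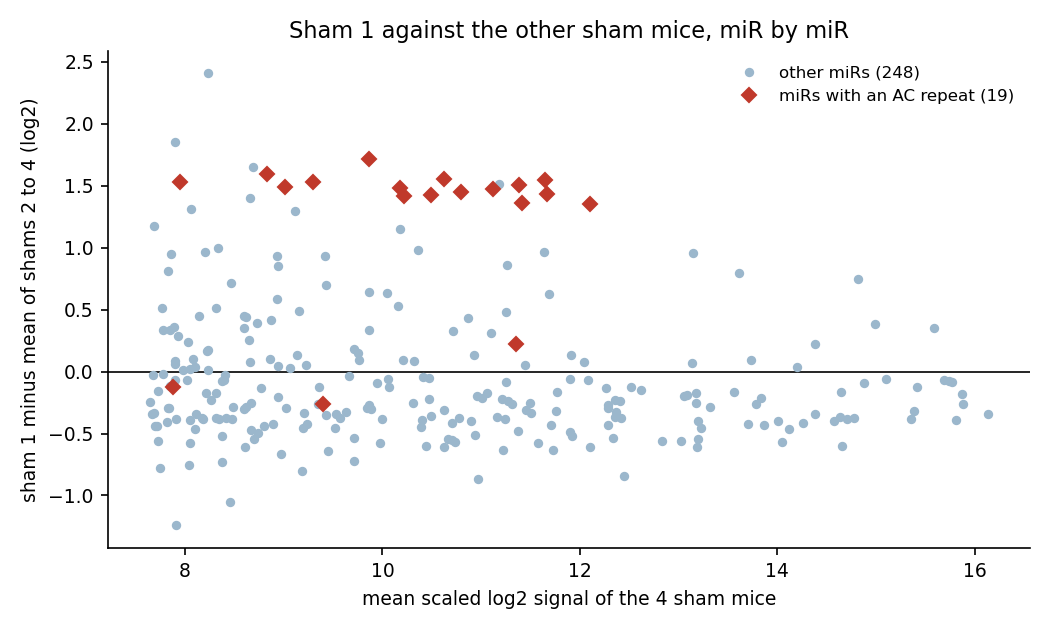
Sham 1 minus the mean of shams 2 to 4 in log2 units (y axis) against the mean scaled log2 signal of all 4 mice (x axis), 1 point per miR, for the miRs at least 2 log2 units above threshold that have a deposited sequence. Of the 19 miRs with an AC repeat, 16 lie more than 1 unit above 0, against 9 of the 248 others.

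Arms were compared within each array, so that the array scaling cancels. The array held 467 arm pairs, 331 of a starred and an unstarred name and 136 of -5p and -3p names, and in 81 pairs an arm was shared with another precursor. Both arms were measured in 124 pairs. In 32 pairs 1 arm was at the scale limit, in 113 pairs 1 arm was above threshold in every mouse and the other in none, in 45 the other passed in some mice, and in 153 neither arm passed in every mouse. Only the 124 measured pairs were tested.

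In 95 of the 124 measured pairs (76.6%) the arms differed by more than 1 log2 unit at an adjusted p under 0.05 (limma on the 4 within-array differences, Benjamini-Hochberg over the 124), and 108 passed on the adjusted p alone. The brighter arm was the same in all 4 mice in all but 12 pairs. The median absolute difference was 2.59 log2 units, with 39 pairs over 4 and 20 over 6. The differences were stable, with a median SD between mice of 0.24 and an SD under 0.2 in 54 pairs. In 61 of the 95 the dimmer arm lay within 2 log2 units of the threshold. The test sets the mean difference of 2 signals against the spread between mice only. As probes were not calibrated against each other, a call is one of array signal and not of RNA copies. How often pairs of unrelated probes would be called was not tested, so the 76.6% has no share to compare with.

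The starred arm was mostly the dimmer. Among 86 measured pairs with a starred arm, the unstarred arm was brighter beyond the call in 53 (61.6%) and the starred arm in 21 (24.4%). Among 38 measured pairs of -5p and -3p names the calls were split, with 12 for 5p (31.6%) and 9 for 3p (23.7%).

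The sequences of 3 pairs with large differences and 3 with the starred arm ahead are shown because they mark both ends of the range. Capitals again mark the seed, and the brighter arm stands first.
miR-27a: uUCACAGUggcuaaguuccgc
miR-27a*: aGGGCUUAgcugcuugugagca
miR-125a-5p: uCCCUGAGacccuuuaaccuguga
miR-125a-3p: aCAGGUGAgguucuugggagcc
miR-15a: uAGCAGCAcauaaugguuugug
miR-15a*: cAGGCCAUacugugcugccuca
miR-677*: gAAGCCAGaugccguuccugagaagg
miR-677: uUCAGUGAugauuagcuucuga
miR-211*: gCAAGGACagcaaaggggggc
miR-211: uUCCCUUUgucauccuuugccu
miR-346*: aGGCAGGGgcugggccugcagc
miR-346: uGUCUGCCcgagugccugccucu

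The largest measured difference was that of miR-27a over miR-27a*, with 9.85, 9.33, 9.19 and 9.22 log2 units in shams 1 to 4 (9.40 ± 0.31, 675-fold, limma adjusted p = 1.95e-08). miR-27a is known to act on lipid metabolism and angiogenesis, and its 2 arms map to chr8:84208727-84208747 and chr8:84208685-84208706 (plus strand, GRCm38.p6). miR-125a-5p exceeded miR-125a-3p by 8.79, 8.77, 9.03 and 8.40 (8.75 ± 0.26, 430-fold, limma adjusted p = 1.9e-08). miR-99a exceeded its star by 8.33 ± 0.31 and miR-15a by 8.33 ± 0.27. The others of the 10 largest were miR-150 (7.90), miR-191 (7.75), miR-103 over miR-103-1* (7.63), miR-195 (7.59), miR-30c over miR-30c-1* (7.35) and miR-103 over miR-103-2* (6.82). In all 10 the same arm was brighter in each mouse. miR-195 was the most even of them, with 7.48, 7.62, 7.61 and 7.64. Among -5p and -3p names, miR-335-5p from the Mest gene led miR-335-3p by 6.33, 5.94, 5.78 and 5.94, miR-139-5p led by 5.89, miR-345-5p by 5.01 and the leukocyte miR-142-5p by 3.62.

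The starred arm was the brighter beyond the call in 21 pairs, and in each of them it was brighter in all 4 mice. In 4 further measured pairs it was the brighter on average without passing the call. miR-677* led, with 11.02, 11.54, 11.37 and 11.59 against 5.70, 6.18, 6.43 and 5.80 for miR-677, a difference of 5.35 ± 0.35 log2 units in its favour (41-fold, limma adjusted p = 2e-07). miR-140*, the 3p arm in RefSeq of the cartilage miR, had 12.41, 12.89, 13.07 and 12.96 against 8.48, 8.73, 8.92 and 8.55 for miR-140. That was 17.9-fold (limma adjusted p = 1.51e-07), and neither arm was dim. miR-211* exceeded miR-211 30.8-fold, miR-3072* exceeded miR-3072 26.8-fold and miR-346* exceeded miR-346 20.2-fold. Smaller starred leads were found for miR-341, miR-299, miR-204, miR-450a, miR-1247, miR-328, miR-1249, miR-504, miR-149, miR-3102 and miR-665, from 8.68-fold down to 2.08-fold. For miR-149, 13.56 for the unstarred and 14.82 for the starred arm were both far above threshold.

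In the remaining 5 of the 21, miR-467a*, miR-467b*, miR-467c*, miR-669c* and miR-669e*, the starred arm held the ACACAC repeat, and 16 starred leads had no such repeat. The SD of the difference between mice was 0.72 to 1.23 log2 units for 4 of these and 0.30 for miR-669c. miR-467b* led miR-467b by 4.52 log2 units, and its own level was at 11.79 in sham 1 and at 10.04, 10.71 and 9.94 in the other mice. Among -5p and -3p names the repeat was held by 4 of the 9 brighter 3p arms, among them miR-669o-3p (18.6-fold, on a probe shared with miR-669a-3p) and miR-466m-3p (6.87-fold). The brighter 3p arms without it included miR-1894-3p (9.83-fold) and miR-208a-3p. miR-208a-3p exceeded miR-208a-5p by 3.10, 2.47, 2.56 and 2.84 log2 units in shams 1 to 4 (6.70-fold, limma adjusted p = 2.75e-06), and the 5p arm was itself bright, at 12.60, 13.34, 13.09 and 13.04.

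**Figure D5:**
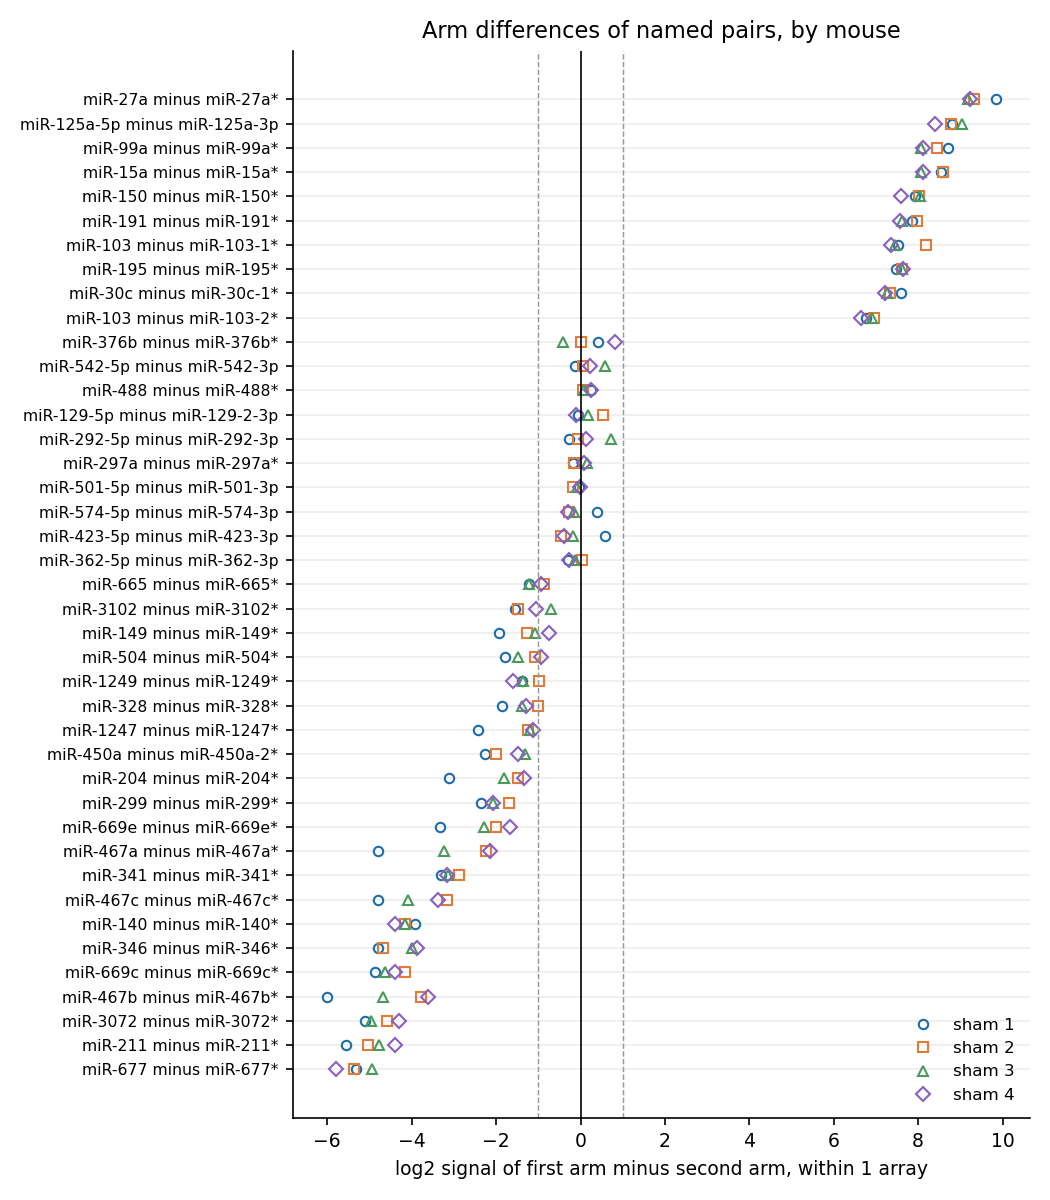
Difference of the log2 signals of the arms within an array (x axis, first named arm minus second), for the 10 largest and 10 smallest measured differences and the 21 pairs with a brighter starred arm (y axis), with a symbol for each of the 4 sham mice. Dashed lines mark 1 log2 unit. Each pair of the largest and starred sets keeps 1 sign in all 4 mice, and the smallest differences lie around 0.

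The arms were closest in miR-297a, miR-501, miR-574, miR-423, miR-292, miR-129, miR-488, miR-362, miR-542 and miR-376b. Their mean differences were 0.02 to 0.21 log2 units in size and none passed the test. miR-423-5p had 10.12, 9.64, 9.89 and 9.82 against 9.54, 10.11, 10.06 and 10.20 for miR-423-3p, so that 5p led in sham 1 and 3p in the other mice. miR-574 was split in the same way, with 5p minus 3p at 0.39, -0.28, -0.15 and -0.31. miR-501 had near-equal arms in every mouse, with -0.03, -0.19, -0.07 and -0.01. miR-129-5p (6.15 ± 0.13) and miR-129-2-3p (6.02 ± 0.24) were both close to threshold, with a difference of 0.13 ± 0.29 (limma adjusted p = 0.379).

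Where 1 arm was at the scale limit only a lower bound could be had, taking a dim arm at no less than the lowest signal above threshold. In all 29 such pairs with a starred name the unstarred arm was the brighter. Over the 32 pairs the bounds ran from 1.63 to 10.70 log2 units with a median of 9.95, and 28 were over 5. miR-126-3p was at least 178-fold brighter than miR-126-5p, which itself had 8.93, 8.91, 8.72 and 8.87. The 4 bounds under 5 belonged to pairs whose starred arm was abundant too. miR-133a was at least 3.10-fold above miR-133a* (14.42, 14.87, 14.72 and 14.81), miR-22 at least 8.96-fold above miR-22*, miR-378 at least 15.7-fold above miR-378* and let-7d at least 16.6-fold above let-7d*.

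Where the dimmer arm was below threshold in every mouse, the bounds ran from 0.14 to 8.37 log2 units with a median of 2.41. The unstarred arm was the brighter in 74 of 91 such pairs and the starred arm in 17, and 5p and 3p led in 11 each of 22. miR-107 was at least 331-fold above its star, and miR-21, known for its rise in fibrotic heart, at least 84.5-fold, with miR-21 itself at 12.10, 12.12, 11.87 and 12.08. On the other side, miR-3077* (14.20, 13.94, 13.12 and 13.17) was at least 250-fold above miR-3077, and miR-331-3p at least 17.4-fold above miR-331-5p.

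Base composition differed between the arms in both sets of called pairs with a starred name. Both sequences were at hand for 94 called pairs. Where the unstarred arm was brighter, it began with U in 29 of 53 pairs and its partner in 8. Where the starred arm was brighter, it began with U in 4 of 21 pairs and its dimmer partner in 12, as in the printed pairs of miR-677, miR-211 and miR-346. Median GC content of the brighter arm was 47.8% against 54.5% for the dimmer in the former pairs, and 61.9% against 50% in the latter. Of the 71 called pairs that RefSeq places on both sides, the 5p arm was the brighter in 45 and the 3p arm in 26. These shares are descriptions, since star names were given by earlier abundance and related precursors share sequence.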

How the data were processed

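LV tissue of each mouse was screened by a service company for the authors, on a single-channel array of miRBase 16.0 probes with 3 spots per probe. The deposited intensities are background-subtracted and unscaled between arrays. For the deposited log2 values the authors took the average of a probe's 3 spots on the log2 scale and added a constant per array, set by a 20% trimmed mean, and the detection thresholds come from the authors' negative controls. The authors' p-values, false discovery rates and fold changes compare the groups and were not used. Values were taken as deposited, with 0 value columns unassigned. The headers give all 4 sham arrays a common leading number, so no batch among them could be set.

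Members and lists were chosen with earlier results of these data known. Named were the miRs at the limit, the 20 brightest, those nearest the threshold, the 10 largest and 10 smallest arm differences, brighter starred arms, the 5 largest for 5p and 3p, the extremes of SD, and marker miRs. A few are not reported here. Arm differences were tested against 0 with limma 3.58.1 (lmFit with an intercept, eBayes) in R 4.3.3, and 520 deposited sequences were set against RefSeq, of which 403 matched exactly. On simulated data with 124 pairs, limma called 49 of 50 at 1.5 log2 units, 50 of 50 at 3 and 0 of 24 unchanged pairs. The simulated pairs were independent, with normal noise, no shared arm and no offset between probes. The real pairs differ in these points, which the simulation does not cover. The 4 arrays limit the precision. The p-values set the mean arm difference against the spread between these 4 separately labelled samples. They do not cover differences in signal that come from the probes. Alternatives in background, scaling, spots, filter, shared names, call size and mice are given in the closing section.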

Additional observations from a re-analysis of the deposited data

Results flagged for a closer look

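Of 136 values tested in the 4 sham mice, 7 had 1 mouse far from the other 3. Chance gives such a gap in about 1 in 20 groups, and 7 of 136 is close to that share. Sham 1 was low for 3 miRs of the miR-17 to miR-92 group: miR-17 at 11.25 against 11.57 to 11.60, miR-20a at 12.09 against 12.44 to 12.46, and miR-92a at 11.53 against 12.04 to 12.07. Sham 4 was high for miR-142-5p at 10.33, with the other mice at 9.95 to 10.00. Sham 3 was low for miR-98 at 10.07, with the others at 10.38 to 10.43. In the arm differences, sham 1 stood apart for miR-1247 minus miR-1247* at -2.43, against -1.23, -1.20 and -1.12, and for miR-195 minus miR-195* at 7.48, against 7.61 to 7.64. The difference of miR-1247 kept its sign in every mouse.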

How the results depend on the processing

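No paired analysis was possible because only 1 group was described, so that no replicate number is shared between groups, while the arms themselves were compared within each array. The arms differed in 95 of 124 pairs as reported, in 54 of 69 (all among the 95) when both arms had to be 1 log2 unit above threshold, and in 280 of 435 with no filter on the threshold, which lets in arms below it. Counts stayed within 1.5 times under the other settings: 96 with negative controls subtracted, 95 with quantile normalization or the median of 3 spots, 81 of 102 without shared names, 102 at a difference over 0.5 and 72 over 2. Leaving out a mouse gave 94 to 97 calls, with miR-3099, miR-466p-5p and miR-877 lost without sham 1 and miR-877 without sham 3. The median SD of measured miRs was 0.15 without sham 1 and up to 0.26 without another mouse. Among the named pairs and these settings, signs turned only for differences near 0 that were not called: miR-297a minus miR-297a* was 0.035 with the median of 3 spots and -0.081 to 0.029 without a mouse. Without a mouse, miR-129-5p minus miR-129-2-3p was -0.0014 to 0.21, miR-292-5p minus miR-292-3p -0.070 to 0.26, miR-376b minus miR-376b* -0.00046 to 0.41 and miR-423-5p minus miR-423-3p -0.34 to 0.0045. Above threshold in every mouse were 503 to 514 miRs without a mouse, 417 and 353 at 0.5 and 1 log2 unit above it, and 569 on at least 2 arrays. At the limit were 24 or 25 under all settings run, and 49 or 50 of the 50 brightest stayed among them. The lowest SDs, such as that of miR-1199* (0.20 with no scaling), depended on the scaling. Signal near threshold and at the scale limit bounds what can be ranked.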
